A study of Mus musculus with 68 samples.

Results

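The comparison set resting zone chondrocytes against hypertrophic chondrocytes of the growth plate in mice at postnatal day 2 (P2). Samples were chosen by their labels: age P2, ethanol fixation, and resting or hypertrophic zone, which gave 17 of the 68 libraries of the series, 9 resting and 8 hypertrophic. Libraries with at least 100000 counts entered the test, which left 4 resting libraries (animals A, D, F and G) and 4 hypertrophic libraries (animals A, C, D and G). Animals A, D and G had both zones, and they alone carry the difference within an animal. All mice were of mixed background, and no treatment or engineered allele is given for either zone. Bones were frozen directly after death and cut at 10 microns, and cells of each zone were cut out with a laser and lysed without RNA extraction. SMART-seq2, a method that copies whole polyadenylated transcripts from very small inputs, gave the libraries. The label of animal D is a plural, so that sample may pool animals. The resting library of animal G held 128 Xist and 747 Y-linked counts, so it may hold more than 1 animal. Nothing in the labels says how many cells each library held.

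The growth plate is the cartilage disc that lengthens a long bone. Round chondrocytes of the resting zone supply columns of dividing cells, which then stop dividing, enlarge as hypertrophic chondrocytes, lay down type X collagen and prepare the matrix for mineral and bone. Maturation is paced by a loop in which Indian hedgehog from cells that are about to enlarge acts on Pthlh, the parathyroid hormone-related protein made near the joint end, whose receptor Pth1r holds chondrocytes back from hypertrophy.

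Sequencing depth was uneven. The resting libraries in the test held 203304 to 3347722 counts and the hypertrophic ones 252800 to 2583378. Rn45s, the precursor of ribosomal RNA, took 8.51% to 34.1% of the counts in resting and 39.9% to 70.7% in hypertrophic libraries. Levels are given as counts per 1000000 on the TMM scale (CPM). Genes with a count numbered 8480 to 11330 in resting and 3372 to 8967 in hypertrophic libraries. 1 count was worth 0.179 to 2.73 CPM in resting sums and 9.49, 14.4, 2.46 and 0.478 CPM in the hypertrophic sums of animals A, C, D and G, so a 0 in the hypertrophic sums of A and C allows a higher level than a 0 elsewhere. How far this moved a given gene was not tested. Single values are listed for animals A, D, F and G in resting and for A, C, D and G in hypertrophic sums, where a sum is all counts of 1 animal and zone. Fold changes are log2, resting over hypertrophic, with the standard error, and a gene rose or fell where its adjusted p was under 0.05. A gene that did not pass is not shown to be equal in both zones. Where 1 zone held 0 counts the fitted fold change depends on a prior count, so a lower bound against 3 counts is given instead. Each such bound ("at least") and each pooled ratio adds the counts of a zone over its animals. It covers counting error only and is not a bound for each animal. Animal G weighs most, with an effective size of 2093159 beside 105409.5, 69349.19 and 405904.1 in the hypertrophic sums of A, C and D. In such captured tissue fewer cells of a type and less RNA per cell cannot be told apart.

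The labelled zones were checked on fixed markers. Ucma, a secreted protein of young chondrocytes, had 719, 1713, 1797 and 1482 CPM in resting sums and 0, 28.8, 0 and 0.955 CPM in hypertrophic sums. Col10a1, type X collagen (GRCm38, chromosome 10, 34389981 to 34397085, plus strand), had 0, 0.908, 2.71 and 4.3 CPM in resting sums and 26051, 5826, 36287 and 60572 CPM in hypertrophic sums. Both genes separated the labelled zones with no overlap. Pthlh was seen in 3 of 4 resting sums with 0, 37, 16 and 67 counts and had 0 counts in all 4 hypertrophic sums, at least 11.5-fold higher in resting, but it did not pass the test (adjusted p = 0.11). Sfrp5, a secreted Wnt binder used to mark the resting zone, averaged 80.6 ± 71.6 CPM in resting and 2.63 ± 5.26 CPM in hypertrophic sums (SD, n = 4 each; adjusted p = 0.128). Ihh had 0 counts in every resting sum, and Ibsp did not overlap between the zones. Mmp13, a collagenase of late hypertrophic cells, could not serve as a marker: it had 0 counts in resting and 1 count in hypertrophic sums and was not tested. The cartilage genes Col2a1 and Acan were among the high genes of both zones, and Sox9, the transcription factor that establishes chondrocytes, averaged 492 ± 120.1 CPM in resting and 167 ± 72.7 CPM in hypertrophic sums (SD, n = 4 each; adjusted p = 0.327).

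Across the 6958 genes tested, 262 (3.77%) were called, of which 145 (2.08%) rose and 117 (1.68%) fell in resting. The median log2 fold change of all genes tested was 0.52, or 0.50 with the 411 genes that had a zone at 0 set to their bounds. In 163 of the 262 genes all 4 sums of one zone lay on one side of all 4 sums of the other. Over all genes tested, 715 (10.3%) had all resting sums above and 123 (1.77%) had all resting sums below the hypertrophic ones. The fold change had 1 sign in all 3 animals with both zones for 244 of the 262. The calls leaned on single animals: without animal A, D or G in turn, 163, 60 and 54 genes were called. The table's header names the columns of animals A, C and D in one style and those of F and G in another. The fit without G, with 18 genes higher and 36 lower, therefore draws its P2 zone effect on the first set alone, while the second holds 1 animal with both zones and gives no test. Of the genes named below, 20 passed under every alternative setting in which they were tested: Ucma, Meg3, Fmod, 1500015O10Rik, Dcn, Itm2a, Tgfbi, Mest and Angptl2 among the higher, and Loxl4, Aldh1a3, Pth1r, Ccdc80, Comp, Panx3, Atp1b3, Mef2c, Gpc1, Cgref1 and Neat1 among the lower.

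**Figure D1:**
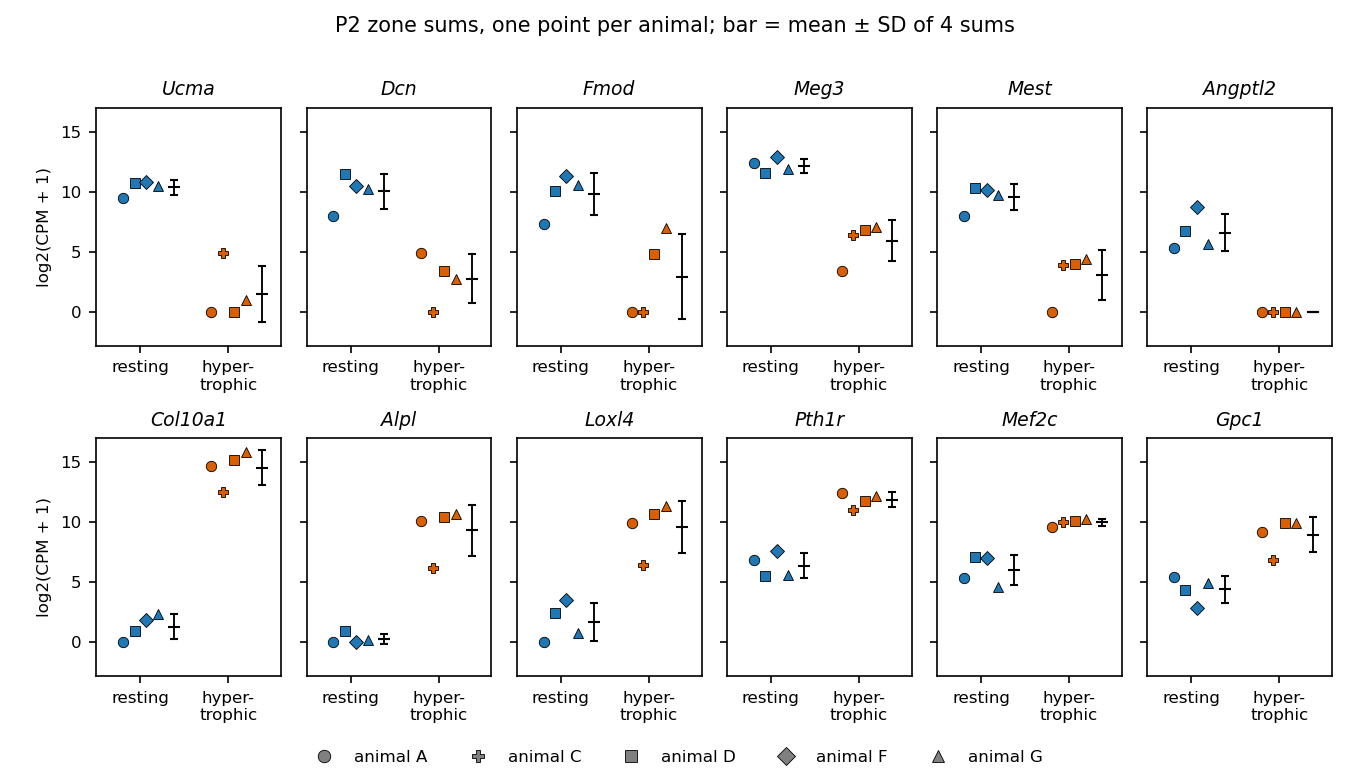
Level of 12 genes in each P2 sum, as log2(CPM + 1), resting left of hypertrophic in each panel; each point is 1 animal and the bar is the mean ± SD of 4 sums on this scale. The 6 genes of the upper row are higher in all resting sums, Angptl2 with 0 in all 4 hypertrophic sums, and the 6 of the lower row are lower in all resting sums.

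Small leucine-rich proteoglycans, short secreted proteins that bind collagen fibrils and growth factors, gave calls in 1 direction. Of 11 tested members 5 (45.5%) rose (Dcn, Bgn, Fmod, Prelp and Epyc) and 0 fell, beside 2.08% and 1.68% of all genes, with a list median log2 fold change of 4.51, or 3.99 with the 1 member that had a zone at 0 set to its lower bound. Decorin (Dcn), which binds fibrillar collagen and TGF-beta, had 252, 2894, 1413 and 1217 CPM in resting sums and 28.5, 0, 9.85 and 5.73 CPM in hypertrophic sums. Every resting sum lay above every hypertrophic one, animal A being the lowest of the resting sums, and the log2 fold change was 6.73 ± 1.07 (adjusted p = 1.32e-07). Fibromodulin (Fmod), which steers the width of collagen fibrils, had 159, 1092, 2632 and 1519 CPM in resting sums and 0, 0, 27.1 and 125 CPM in hypertrophic sums. Here too the zones did not overlap, with a log2 fold change of 4.51 ± 0.71 (adjusted p = 9.04e-08). Biglycan (Bgn), which binds collagen and BMP ligands, had 569, 1663, 3475 and 2099 CPM in resting sums and an even 142, 187, 168 and 154 CPM in hypertrophic sums. Its log2 fold change was 3.08 ± 0.64 (adjusted p = 0.000226). Epiphycan (Epyc), a proteoglycan of growth plate cartilage, averaged 1101 ± 937 CPM in resting and 51.7 ± 78 CPM in hypertrophic sums (SD, n = 4 each), and the lowest resting sum, animal A at 112 CPM, was below the highest hypertrophic sum, animal G at 165 CPM. Prelp averaged 214 ± 140.4 CPM in resting and 28.7 ± 52.6 CPM in hypertrophic sums. Without animal A, D or G, 4, 2 and 4 members rose and 0 fell. Leaving out animal D ended the calls of Bgn, Prelp and Epyc (adjusted p 0.0867 to 0.107). In other such fits edgeR lost the call of Prelp (adjusted p = 0.137) without animal A and that of Bgn (adjusted p = 0.0924) without animal G.

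Several of these proteoglycans are also made by perichondrium, the fibrous sheath around the cartilage. The called markers of that tissue were higher too, though Dcn among them is itself such a proteoglycan. The 14 markers of perichondrium and fibroblast cells in the table summed to 1069 to 6457 CPM in resting and 266 to 1687 CPM in hypertrophic sums. Of 6 tested, Dcn and Col1a2 rose (33.3%) and 0 fell, beside 2.08% and 1.68% of all genes. At an unadjusted p under 0.05 edgeR had 5 of the 6 higher and 0 lower, beside 822 and 334 of all 6958 genes. DESeq2 called 3 higher and 0 lower. Col1a2, a chain of type I collagen, had 227, 1627, 1757 and 691 CPM in resting sums and 85.4, 822, 86.2 and 26.8 CPM in hypertrophic sums, which overlap through animal C. Its log2 fold change within animals was 3.35 ± 0.85 (adjusted p = 0.00565), and that call was lost without animal D or G. Of the 14 markers 2 were at 0 in all resting sums and 7 in all hypertrophic sums. In animals A, D and G 1 count was worth more CPM in the hypertrophic than in the resting sum. A 0 in the hypertrophic sums therefore allows a higher level. Dpt and Scx were at 0 in both zones. The 5 at 0 in hypertrophic sums alone were Pdgfra (4, 59, 183 and 57 resting counts), Aspn (26, 6, 31 and 29), Col14a1 (1, 48, 0 and 123), Prrx1 (3, 9, 0 and 119) and Tnmd (21, 0, 0 and 0). Col3a1, a chain of type III collagen, had 14, 942, 736 and 1781 counts in resting sums and 2, 1, 9 and 20 counts in hypertrophic sums. Lum had 127, 960, 1143 and 6032 against 5, 4, 122 and 632 counts. Col1a1, also of type I collagen, had 15, 103, 23 and 145 against 9, 55, 0 and 32 counts. On the CPM scale Col1a1 was lower in resting in animal A and higher in D and G. Postn had 5, 0, 3 and 5 against 0, 0, 0 and 5 counts, and Twist1 0, 4, 0 and 0 against 0, 0, 1 and 4. The part of perichondrial RNA in the proteoglycan values was not tested.

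Of the other genes with small adjusted p, 1500015O10Rik had 145, 741, 488 and 549 CPM in resting sums and 0, 0, 2.46 and 2.87 CPM in hypertrophic sums, with 0 in 2 of 4 hypertrophic sums and a log2 fold change of 7.70 ± 1.21 (adjusted p = 9.92e-08). Angptl2, an angiopoietin-like secreted protein, had 38.3, 105, 418 and 50.7 CPM in resting sums and 0 counts in every hypertrophic sum, at least 129-fold higher (adjusted p = 1.11e-05). The TGF-beta-induced matrix protein Tgfbi was uneven among resting sums at 875, 19.1, 62.8 and 288 CPM, with 0, 0, 2.46 and 0.955 CPM in hypertrophic sums. Even its lowest resting sum, animal D, lay above all hypertrophic sums, which held 3 counts together, and the pooled ratio of resting over hypertrophic was 201 (95% interval 68.6 to 975), counting error only. Itm2a, a membrane protein of early cartilage, had 2020.5, 11776, 4692 and 5503 CPM in resting sums and 228, 433, 581 and 726 CPM in hypertrophic sums, and its log2 fold change was 3.51 ± 0.57 (adjusted p = 3.6e-07). The uncharacterised gene 1190002N15Rik was even in resting sums at 142, 199.8, 176 and 139 CPM, with 0, 86.5, 0 and 0 CPM in hypertrophic sums, where animal C stands apart. Follistatin-like Fstl1, a secreted binder of BMP ligands, averaged 393 ± 128 CPM in resting and 2.21 ± 3.52 CPM in hypertrophic sums (SD, n = 4 each), a log2 fold change of 7.29 ± 1.43; its adjusted p of 5.41e-05 became 0.0785 without animal G.

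The imprinted growth genes, which are read from 1 parental copy and many of which set fetal growth, gave 9 higher (45%) and 1 lower (5%) among 20 tested. Over all genes 2.08% were higher and 1.68% lower. The list median was 2.61. Meg3 (GRCm38, chromosome 12, 109541001 to 109571726, plus strand), a maternally expressed long RNA, had 5359, 3010.4, 7619 and 3802 CPM in resting sums and 9.49, 86.5, 113 and 132 CPM in hypertrophic sums. Its lowest resting sum was above its highest hypertrophic sum and its log2 fold change was 5.36 ± 0.71 (adjusted p = 4.01e-11). The microRNA host Mirg, from the same chromosome 12 cluster, had 3, 49, 273 and 631 counts in resting and 0 in all hypertrophic sums, at least 91.9-fold higher. Dlk1, a membrane protein related to Notch ligands and paternally expressed from that cluster, had 186, 1749, 1195 and 915 CPM in resting sums and 56.9, 57.7, 9.85 and 22.9 CPM in hypertrophic sums, a log2 fold change of 5.0 ± 1.06 (adjusted p = 0.000293). H19 had 4139, 5187, 11598 and 7048 CPM in resting sums and 275, 274, 542 and 870.5 CPM in hypertrophic sums, again without overlap, and its proliferative sums averaged 6533 ± 1172 CPM, near the resting mean of 6993 ± 3297 CPM. Its log2 fold change was 3.34 ± 0.55 (adjusted p = 5.39e-07). Igf2, the fetal growth factor beside H19, overlapped between the zones, with 1766, 4397, 9485 and 5779 CPM in resting sums and 342, 562, 1123 and 1976 CPM in hypertrophic sums. It passed (adjusted p = 0.0193) and stopped passing without animal A, D or G, with adjusted p of 0.211, 0.308 and 0.257. Igf2r, the receptor that removes Igf2, was higher as well, averaging 211 ± 119.7 CPM in resting and 19.6 ± 16.7 CPM in hypertrophic sums (SD, n = 4 each). Mest, a hydrolase-like protein, had 249, 1305, 1169 and 878 CPM in resting sums and 0, 14.4, 14.8 and 20.5 CPM in hypertrophic sums, a log2 fold change of 5.87 ± 1.07 (adjusted p = 9.5e-06). Plagl1, a zinc finger factor, had 257, 7595, 5217 and 6279 CPM in resting sums and 161, 144, 436 and 1514 CPM in hypertrophic sums, where animal A is low in resting and animal G high in hypertrophic. It passed with a log2 fold change of 2.5 ± 0.61 (adjusted p = 0.00285), which became 1.47 without animal D (adjusted p = 0.492) and 2.75 without animal G (adjusted p = 0.123). The antisense RNA Kcnq1ot1, from an imprinted domain, rose with no overlap, having 2972, 2069, 2054 and 2880.3 CPM in resting sums and 332, 245, 525 and 1695 CPM in hypertrophic sums. Slc38a4, an amino acid transporter, went the other way with 0, 13.6, 9.03 and 2.86 CPM in resting sums and 114, 173, 281 and 322 CPM in hypertrophic sums. Without animal A, D or G, 6, 3 and 3 members of the list were higher. With animal G left out, the fit no longer gave the calls of Mirg, Dlk1, Igf2r, Kcnq1ot1 and Slc38a4 (adjusted p 0.128 to 0.561). The remaining fits of this kind lost the calls of Mirg, Dlk1, Igf2r and Kcnq1ot1 (adjusted p 0.245 to 0.374) without animal D, those of Mirg and Kcnq1ot1 (adjusted p 0.0568 to 0.425) without animal A and that of Kcnq1ot1 (adjusted p = 0.053 and 0.0808) without animal C or P28 animal B.

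Genes of the cell cycle gave calls in 1 direction. Of 38 tested, 9 (23.7%) rose (Mki67, Top2a, Cenpf, Ccna2, Kif23, Rrm1, Hells, Birc5 and Aspm) and 0 fell, beside 2.08% and 1.68% of all genes. In edgeR 26 had an unadjusted p under 0.05, all higher, where 822 of all 6958 genes were higher and 334 lower. The list median was 5.55, or 3.97 with the 15 members that had a zone at 0 set to their bounds. Mki67, the marker of cycling nuclei, had 142, 56.3, 550.1 and 239 CPM in resting sums and 0 counts in all 4 hypertrophic sums, at least 257-fold higher (adjusted p = 1.35e-05), and lost its call without animal G (adjusted p = 0.0772). Top2a, the DNA topoisomerase of dividing cells, had 118, 121, 275 and 104 CPM in resting sums and 9.49, 0, 0 and 0 CPM in hypertrophic sums; the single hypertrophic count gave a pooled ratio of 395 (95% interval 70.7 to 15599). Aspm, a spindle pole protein, had 150.4, 21.8, 110.2 and 30.6 CPM in resting and 0 counts in hypertrophic sums, at least 47.5-fold higher. Hells, a chromatin remodeller of S phase, was at least 40.9-fold higher and Birc5, survivin of the mitotic passenger complex, at least 50.8-fold higher, both against 0 hypertrophic counts. Rrm1, the large subunit of ribonucleotide reductase, had 109, 53.6, 31.2 and 66.2 CPM in resting sums and 0, 14.4, 0 and 0 CPM in hypertrophic sums. Each called cell cycle gene was at 0 in at least 3 of 4 hypertrophic sums. These genes were picked by their calls, so such zeros add no separate result. In the hypertrophic sums of A and C 1 count was worth 9.49 and 14.4 CPM, so a 0 there allows a low level. The zone of dividing columns gave levels of the same order: Mki67 averaged 247 ± 215 CPM in resting sums beside 179.8 ± 159 CPM in those of the proliferative zone, and Top2a 154 ± 80.7 CPM beside 75.9 ± 53.6 CPM (SD, n = 4 each). The inhibitor of cyclin-dependent kinases Cdkn1a ran the other way, with 0, 2.72, 0 and 0.179 CPM in resting sums and 28.5, 28.8, 384 and 328 CPM in hypertrophic sums. Without animal A, D or G, 5, 1 and 0 members rose. The edgeR fit without G had 483 genes of all tested at an unadjusted p under 0.05, and DESeq2 with every animal called 14 members. Without the sums of animal G edgeR did not give the calls of Top2a, Aspm, Hells, Birc5, Rrm1, Cdkn1a, Cenpf, Ccna2 and Kif23 (adjusted p 0.123 to 0.603). Other fits with 1 animal left out lost the calls of Top2a, Aspm, Hells, Birc5, Rrm1, Cenpf, Ccna2 and Kif23 (adjusted p 0.0967 to 0.308) without animal D, those of Aspm, Birc5, Cenpf, Ccna2 and Kif23 (adjusted p 0.0619 to 0.171) without animal A, those of Ccna2 and Kif23 (adjusted p 0.0524 to 0.0745) without P28 animal A or P28 animal B and that of Ccna2 (adjusted p = 0.0526) without animal C.

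The promoters of the cell cycle genes were read for short letter patterns, which the choice of genes did not use. CCAAT, the box bound by the NF-Y complex and common in promoters of cell cycle genes, was searched on both strands in the 250 bases before each gene's start (RefSeq, GRCm38.p6). It was found in 25 of the 32 tested cell cycle genes with a promoter in the table (78.1%), in 36.6% of the 5263 tested genes with one, and in 34.5% of all 27025 promoters. TTTGAA, the core of the cell cycle homology region, was found in 10 of the 32 (31.2%), in 9.88% of the tested genes with a promoter and in 16.3% of all promoters. A match describes the letters and is not a binding site. The promoters of Mki67 (chr7:135716380-135716629, minus strand), Top2a (chr11:99024190-99024439, minus strand) and Rrm1 (chr7:102441445-102441694, plus strand) are shown because these genes had at most 1 hypertrophic count; capitals mark CCAAT, or ATTGG where the box lies on the other strand.
Mki67: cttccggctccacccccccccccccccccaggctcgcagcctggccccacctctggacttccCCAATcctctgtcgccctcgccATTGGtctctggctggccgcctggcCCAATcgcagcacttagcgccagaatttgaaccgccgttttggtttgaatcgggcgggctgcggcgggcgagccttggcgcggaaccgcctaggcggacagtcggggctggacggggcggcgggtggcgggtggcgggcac
Top2a: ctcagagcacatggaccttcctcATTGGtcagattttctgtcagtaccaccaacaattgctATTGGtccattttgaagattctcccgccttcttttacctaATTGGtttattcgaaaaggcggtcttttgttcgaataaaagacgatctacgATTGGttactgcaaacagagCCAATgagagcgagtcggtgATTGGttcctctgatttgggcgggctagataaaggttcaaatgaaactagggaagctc
Rrm1: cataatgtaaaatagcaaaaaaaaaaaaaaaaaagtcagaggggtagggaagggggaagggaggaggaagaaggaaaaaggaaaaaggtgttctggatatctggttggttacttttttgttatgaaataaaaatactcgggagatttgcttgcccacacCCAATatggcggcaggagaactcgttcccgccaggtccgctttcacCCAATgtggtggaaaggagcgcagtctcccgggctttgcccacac
Mki67 holds 3 such boxes, Top2a 6 and Rrm1 2. The promoter of Col10a1 (chr10:34389731-34389980, plus strand) is given beside them as that of the defining hypertrophic marker. Its capitals mark TATAAA, which starts 32 bases before the gene's start. On either strand it was found in 3 of 8 promoters of the prehypertrophic and hypertrophic markers called lower. It was found in 0 of the 8 promoters of cell cycle genes called higher and in 0 of the 32 tested. Of all genes called lower 10% had it, of those called higher 8%, of the tested genes with a promoter 5.83%, and of all promoters 13%. CCAAT was found in 4 of the 8 hypertrophic promoters and in 6 of the 8 called cell cycle ones, so these patterns describe the lists and not the zones.
Col10a1: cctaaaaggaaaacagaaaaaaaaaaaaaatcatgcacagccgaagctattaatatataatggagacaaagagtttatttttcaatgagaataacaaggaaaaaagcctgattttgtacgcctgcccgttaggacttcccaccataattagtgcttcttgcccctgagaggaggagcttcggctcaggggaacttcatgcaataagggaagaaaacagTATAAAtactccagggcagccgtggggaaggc

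**Figure D2:**
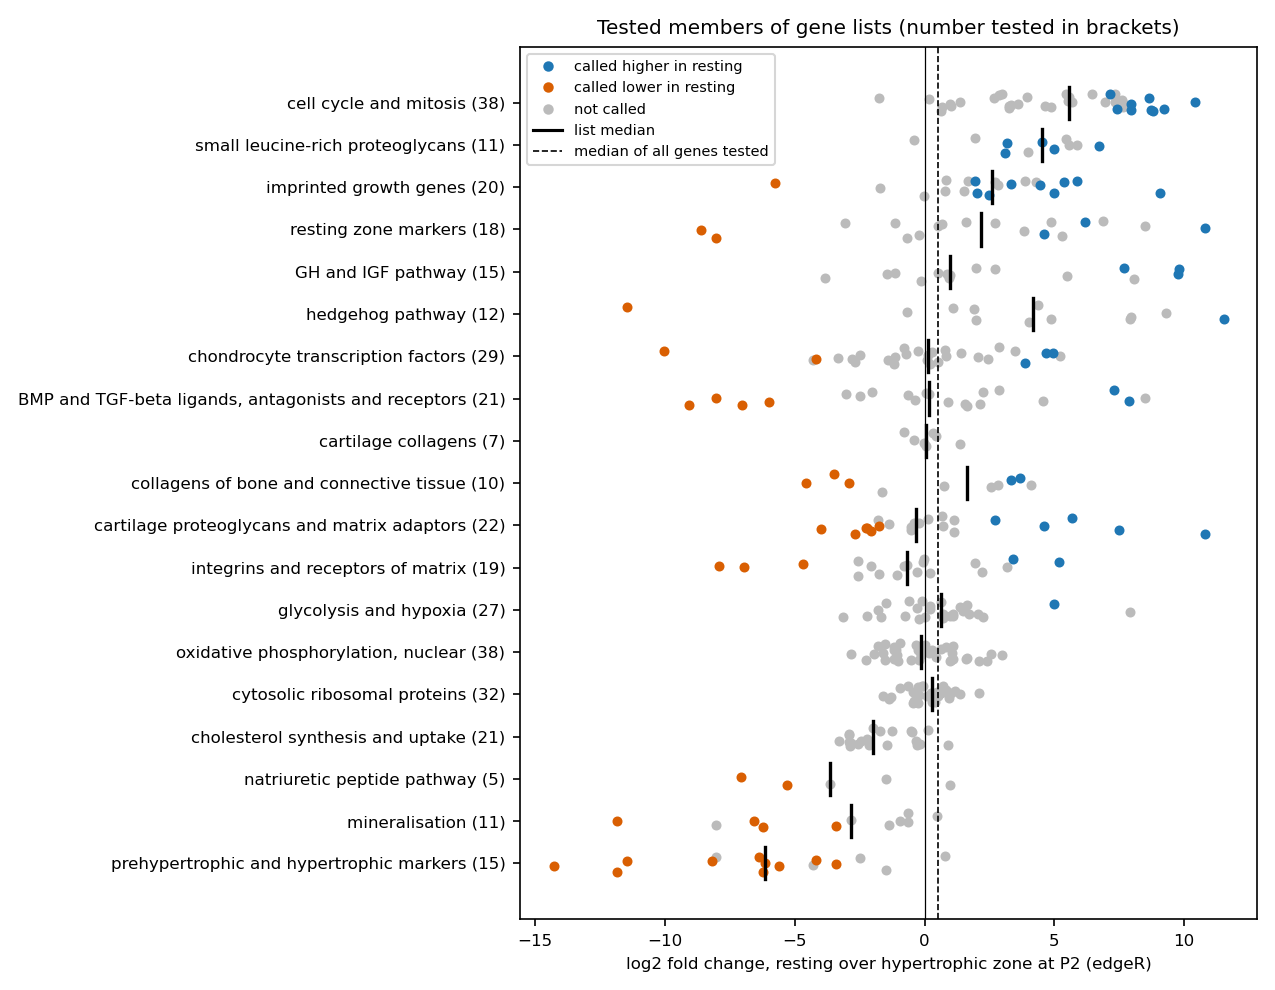
log2 fold change, resting over hypertrophic at P2, of every tested member of 19 gene lists, with the number tested in brackets; blue points passed the threshold as higher and orange points as lower in resting, values of genes with a zone at 0 are fitted ones, the bar is the list median and the dashed line the median of all genes tested (0.52). Cell cycle genes lie to the right with a median of 5.55, hypertrophic markers to the left with a median of -6.16, and cytosolic ribosomal proteins around the dashed line.

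Genes of chondrocyte maturation gave calls in 1 direction: 10 of 15 tested prehypertrophic and hypertrophic markers fell (66.7%, beside 1.68% of all genes), 0 rose, and the list median was -6.16, also with bounds. Of the signalling pair of the maturation loop, Ihh (GRCm38, chromosome 1, 74945315 to 74951672, minus strand) had 0 counts in every resting sum and 12, 5, 68 and 1283 counts in hypertrophic sums, at least 1581-fold lower (adjusted p = 1.93e-07). Pth1r, the receptor for parathyroid hormone-related protein, had 112, 44.5, 196 and 47.8 CPM in resting sums and 5531, 2105, 3501 and 4752 CPM in hypertrophic sums. All hypertrophic sums lay above all resting sums, with a log2 fold change of -6.16 ± 0.67 (adjusted p = 8.65e-17). Col10a1 had a log2 fold change of -14.29 ± 2.72 (adjusted p = 0.0289): its call was lost without animal A, D or G, with adjusted p of 0.159, 0.261 and 0.297, although no resting sum passed 4.3 CPM. Alpl, the phosphatase that frees phosphate for mineral, had 0, 0.908, 0 and 0.179 CPM in resting sums and 1091, 72.1, 1377 and 1629.6 CPM in hypertrophic sums, with 2 resting counts in all and a pooled ratio of 0.000141 (95% interval 1.71e-05 to 0.00051). Panx3, a channel protein of prehypertrophic cells, had 2.73, 0, 0 and 24.9 CPM in resting sums and 237, 0, 397 and 924 CPM in hypertrophic sums, where the hypertrophic sum of animal C had none and overlaps the resting sums. Mef2c, the transcription factor that drives hypertrophy, had 41, 135, 132 and 23.6 CPM in resting sums and 787, 1038, 1086 and 1211 CPM in hypertrophic sums (log2 fold change -4.18 ± 0.80, adjusted p = 3.65e-05). Runx2, another transcription factor of hypertrophy, averaged 36.8 ± 45.3 CPM in resting and 221 ± 162 CPM in hypertrophic sums and did not pass (adjusted p = 0.166). Neither did Vegfa, the signal for vessel ingrowth (adjusted p = 0.595), nor Spp1, osteopontin (adjusted p = 0.354). The sphingomyelin enzymes Smpd3, needed for mineralisation, and Sgms2 fell, with log2 fold changes of -3.40 ± 0.71 and -5.61 ± 1.14. Without animal A, D or G, 10, 8 and 6 members of the list fell. The fit that left out animal G ended the calls of Smpd3 and Sgms2 (adjusted p 0.0945 to 0.529). In other such fits edgeR lost the call of Sgms2 (adjusted p = 0.0603) without animal D.

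Mineral genes overlap with this list and with osteoblast markers. Of 11 tested mineralisation genes Alpl, Smpd3, Ibsp and Phex fell (36.4%, beside 1.68% of all genes) and 0 rose. Ibsp, bone sialoprotein, had 153, 0, 0.903 and 0.358 CPM in resting sums and 1063, 317, 281 and 210.2 CPM in hypertrophic sums, where the resting sum of animal A stands apart. Phex, a peptidase of phosphate control, had 358, 0, 0 and 0 CPM in resting sums and 85.4, 14.4, 98.5 and 63.1 CPM in hypertrophic sums: the resting sum of animal A alone carried it, and there it was higher than in any hypertrophic sum. Its log2 fold change of -6.57 ± 1.48 therefore rests on animals D and G, its call was lost without either, and it was 0.39 in a fit without the animal block. The fit without P28 animal D ended the call of Ibsp (adjusted p = 0.199). The 14 osteoblast and osteocyte markers summed to 31.1 to 804 CPM in resting and 1240 to 3381 CPM in hypertrophic sums. Their osteoblast-defining members Bglap, Bglap2 and Sost had 0 counts in all sums of both zones, and Sp7 had 5 counts, in the hypertrophic sum of animal G. Cgref1, a secreted calcium-binding protein on that list, had 0, 5.45, 65 and 0 CPM in resting sums and 398, 14.4, 158 and 542 CPM in hypertrophic sums. Ibsp, Phex, Cgref1 and Alpl fell, 4 of 6 tested, and the part of bone-forming cells in these values was not tested.

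Outside the maturation list, other genes were lower in resting with small adjusted p. Loxl4, a lysyl oxidase that crosslinks collagen, had 0, 4.54, 10.8 and 0.716 CPM in resting sums and 958, 86.5, 1685 and 2662 CPM in hypertrophic sums, a log2 fold change of -10.37 ± 1.07 (adjusted p = 5.45e-19). Aldh1a3, an enzyme that makes retinoic acid, had 0, 0, 0 and 1 counts in resting sums and 987, 259.6, 1468 and 966 CPM in hypertrophic sums, and its pooled ratio was 0.000105 (95% interval 2.66e-06 to 0.000587). Both were near absent in resting and present in every hypertrophic sum. Ccdc80, a secreted matrix protein, had 21.9, 8.17, 35.2 and 45.5 CPM in resting sums and 1100.5, 735, 1505 and 1966 CPM in hypertrophic sums (adjusted p = 4.01e-11). Atp1b3, a subunit of the sodium pump, had 21.9, 70.8, 0.903 and 19.2 CPM in resting sums and 1053, 245, 1719.6 and 1512 CPM in hypertrophic sums (adjusted p = 9.92e-08). The cell surface proteoglycan Gpc1 had 43.7, 19.98, 6.32 and 29.7 CPM in resting sums and 579, 115, 956 and 1007 CPM in hypertrophic sums (adjusted p = 7.51e-06), while its relative Gpc6 was higher in resting at 265 ± 153 CPM against 15.1 ± 19.9 CPM in hypertrophic sums (SD, n = 4 each; adjusted p = 0.0487). The convertase Pcsk6, which cleaves growth factor precursors, had 0, 0.908, 124 and 0 CPM in resting sums and 142, 57.7, 165 and 331 CPM in hypertrophic sums. Its log2 fold change of -9.25 ± 1.41 comes from within animals, and the high resting sum of animal F has no hypertrophic partner. Neat1, the RNA of nuclear paraspeckles, had 142, 75.4, 201 and 109 CPM in resting sums and 2704, 2739.8, 1394 and 1740.4 CPM in hypertrophic sums (log2 fold change -4.16 ± 0.70, adjusted p = 9.34e-07). Rn45s and Lars2, whose locus holds a repeat like ribosomal RNA, were also among the 12 highest-ranked lower genes, with log2 fold changes of -3.19 ± 0.29 and -3.32 ± 0.37. Leaving out animal A, animal C, animal D, animal F, animal G, P28 animal A or P28 animal B ended the call of Gpc6 (adjusted p = 0.145, 0.0539, 0.264, 0.0552, 0.556, 0.0707 and 0.0835). Reads of such repeats cannot be placed with certainty, and removing them with Glra2 from the same libraries gave 276 calls, 256 of them shared with the 262.

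The resting zone markers gave calls in both directions. Of 18 tested, Ucma, Scrg1 and Apoe rose (16.7%) and Wif1 and Gdf10 fell (11.1%), beside 2.08% and 1.68% of all genes. The list median was 2.16, also with bounds. Scrg1, a secreted peptide of cartilage, was even at 314, 483, 423 and 414 CPM in resting sums, against 0, 0, 9.85 and 54.5 CPM in hypertrophic sums (adjusted p = 0.000111). Apolipoprotein E (Apoe) had low counts, 6, 14, 13 and 46 in resting and 0 in hypertrophic sums, at least 7.6-fold higher (adjusted p = 0.038). The Wnt inhibitor Wif1 had 0, 2, 3 and 0 counts in resting sums and 6, 0, 116 and 473 in hypertrophic sums, so at this age it was found mainly in the hypertrophic zone of animals D and G. Gdf10, a BMP relative, had 0 counts in resting sums and 0, 0, 2 and 159 in hypertrophic sums, and its highest P2 level was in proliferative sums, at 248 ± 169 CPM. Matn1, matrilin 1, averaged 3584 ± 2263 CPM in resting and 1466 ± 1416 CPM in hypertrophic sums and did not pass (adjusted p = 0.633). Of 6 tested surface markers used for skeletal stem cells, Cd200 fell, with 0, 22.7, 17.6 and 1.07 CPM in resting sums and 56.9, 57.7, 269 and 518 CPM in hypertrophic sums (adjusted p = 0.00032), and 0 rose in edgeR and in DESeq2, with 1 higher at an unadjusted p under 0.05. Without animal A, D or G, 2, 1 and 2 resting markers rose and 2, 1 and 0 fell. With animal G left out, the fit no longer gave the calls of Apoe, Wif1, Gdf10 and Cd200 (adjusted p 0.148 to 0.638). In other such fits edgeR lost the calls of Scrg1, Apoe and Gdf10 (adjusted p 0.0693 to 0.261) without animal D and that of Apoe (adjusted p = 0.0843, 0.0818 and 0.0838) without animal A, P28 animal A or P28 animal B.

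Growth factor pathways gave few calls in each direction. Over all genes tested 2.08% were called higher and 1.68% lower. The shares of these lists were 20% and 0% (IGF), 9.52% and 19% (BMP and TGF-beta) and 0% and 40% (natriuretic peptide). In the IGF pathway, which drives postnatal growth, 1 binding protein and both release proteases rose: Igfbp7, a secreted binder, had 13.7, 208, 163 and 104 CPM in resting and 0 counts in hypertrophic sums, at least 113-fold higher. Pappa, a protease that frees IGF from its binding proteins, had 254, 111, 0 and 106 CPM in resting sums and 0, 0, 0 and 0.955 CPM in hypertrophic sums, a pooled ratio of 116 (95% interval 32 to 960.4). Its relative Pappa2 was called higher within animals (fitted log2 fold change 9.79 ± 2.27). The hypertrophic sums of A, D and G held 0 counts, so the size of that value depends on a prior count. The hypertrophic sum of animal C, without a resting partner in the fit, held 288 CPM. The zone means were 47 ± 61.9 CPM in resting and 72.1 ± 144 CPM in hypertrophic sums, and the sign turned without the animal block (-0.46). These 3 were the calls among 15 tested, 0 fell, and without D or G edgeR called 0 (687 and 483 genes of all tested had an unadjusted p under 0.05), with 3 in DESeq2 on every animal. In the hedgehog pathway the co-receptor Boc had 3, 250, 236 and 877 counts in resting and 0 in hypertrophic sums, at least 131-fold higher, and the ligand Ihh fell as above. The other 10 tested members did not pass in edgeR, where 7 of the 12 had an unadjusted p under 0.05 as higher. DESeq2 called 4 members higher and 1 lower, and the fit of the P2 sums of 3 zones alone called 4 of 7 tested higher. Among Wnt genes Sfrp1, a secreted inhibitor, rose, with 120.3, 187, 97.5 and 285 CPM in resting sums and 0, 0, 0 and 2.87 CPM in hypertrophic sums, and the ligand Wnt5b fell, with a log2 fold change of -4.44 ± 1.35 (adjusted p = 0.0343). Of 21 BMP and TGF-beta genes Fstl1 and the receptor Tgfbr2 rose, while the ligands Bmp2, Tgfb3 and Gdf10 and the antagonist Chrdl1 fell. Bmp2 had 19.1, 0, 1.35 and 0 CPM in resting sums and 47.4, 115, 169.99 and 39.7 CPM in hypertrophic sums. In the natriuretic peptide pathway, which promotes bone growth through cyclic GMP, the clearance receptor Npr3 and the kinase Prkg2 fell, 2 of 5 tested, with 19.1, 3.63, 1.81 and 0.358 CPM for Prkg2 in resting sums and 142, 28.8, 202 and 374 CPM in hypertrophic sums. Fgfr3, the receptor that restrains growth, averaged 227 ± 100.1 CPM in resting and 447 ± 389.7 CPM in hypertrophic sums and did not pass (adjusted p = 0.299). Without animal G edgeR called 0 genes of the BMP, natriuretic and Wnt lists, where DESeq2 on every animal called 7, 3 and 4. Without the sums of animal G edgeR did not give the calls of Igfbp7, Pappa, Pappa2, Boc, Sfrp1, Wnt5b, Bmp2, Tgfb3, Chrdl1, Tgfbr2, Npr3 and Prkg2 (adjusted p 0.136 to 0.566). The remaining fits of this kind lost the calls of Igfbp7, Pappa, Pappa2, Boc, Sfrp1, Wnt5b, Bmp2, Tgfb3, Tgfbr2, Npr3 and Prkg2 (adjusted p 0.11 to 0.407) without animal D, those of Pappa and Wnt5b (adjusted p 0.0649 to 0.147) without animal A and those of Wnt5b and Tgfbr2 (adjusted p 0.0501 to 0.0567) without P28 animal B.

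Cartilage matrix genes gave calls in both directions. Of 7 tested cartilage collagens 0 passed in edgeR and in DESeq2, and 1 had an unadjusted p under 0.05, higher in resting; their median was 0.06. Col2a1, the main collagen of cartilage, had 7201, 51163, 108885 and 53253 CPM in resting sums and 13595, 6460.1, 37782 and 89555 CPM in hypertrophic sums, with wide overlap. Among 22 proteoglycans and matrix adaptors 5 rose (22.7%) and 6 fell (27.3%), beside 2.08% and 1.68% of all genes. Aggrecan (Acan), its link protein Hapln1 and perlecan (Hspg2) were lower in resting, by log2 fold changes of -1.76 ± 0.46, -2.07 ± 0.46 and -2.69 ± 0.60. The zones overlap for all 3, for example Acan with 1309.6, 2399, 6962 and 4210.2 CPM in resting sums and 3833, 1125, 8293 and 16487 CPM in hypertrophic sums, where animals A and C lie below some resting sums, and Acan lost its call without A, D or G, with adjusted p of 0.0944, 0.264 and 0.212. Comp, a pentameric adaptor, had 90.2, 252, 219 and 367 CPM in resting sums and 1565, 173, 3028 and 6806 CPM in hypertrophic sums, a log2 fold change of -3.99 ± 0.56 (adjusted p = 7.96e-10). Versican (Vcan), of early mesenchyme, and chondromodulin, listed under its older symbol Lect1, were higher, averaging 136 ± 123 and 2471 ± 1470.2 CPM in resting and 1.97 ± 3.62 and 359.5 ± 439.6 CPM in hypertrophic sums (SD, n = 4 each). The type VI collagen chains Col6a2 and Col6a3 and the type V chain Col5a2 fell, while Col16a1, which joins collagen fibrils to other matrix, rose. Of 29 chondrocyte transcription factors Sox5, a partner of Sox9, Sox11 and Nfia rose and Mef2c and Irx5 fell; Irx5 had 0 resting counts and was at least 399.8-fold lower, and Sox11 averaged 284 ± 189 CPM in resting and 13.4 ± 11.2 CPM in hypertrophic sums. Without A, D or G, 3, 2 and 4 proteoglycans and adaptors rose and 1, 2 and 4 fell. The fit that left out animal A ended the calls of Hapln1, Hspg2, Vcan, Lect1, Col6a2, Col6a3, Col5a2, Col16a1, Sox5 and Nfia (adjusted p 0.0579 to 0.181). Other fits with 1 animal left out lost the calls of Hspg2, Vcan, Lect1, Col6a2, Col6a3, Col16a1, Sox5, Sox11 and Nfia (adjusted p 0.068 to 0.376) without animal D, those of Vcan, Col6a2, Col6a3, Col5a2, Col16a1, Sox5, Sox11 and Nfia (adjusted p 0.0631 to 0.514) without animal G, those of Vcan, Col6a2, Col16a1, Sox5 and Nfia (adjusted p 0.0567 to 0.0805) without P28 animal B and that of Col6a2 (adjusted p = 0.0707) without P28 animal A.

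Enzymes and receptors of the matrix gave few calls in each direction. Of 17 proteases and inhibitors 1 rose (5.88%) and 2 fell (11.8%), beside 2.08% and 1.68% of all genes. Mmp2, a gelatinase, rose, with 178, 322, 129 and 518 CPM in resting sums and 9.49, 0, 12.3 and 8.12 CPM in hypertrophic sums and no overlap (adjusted p = 0.000859). The aggrecan-cleaving protease Adamts1 fell, with 0, 0.908, 0 and 0 CPM in resting sums and 142, 0, 185 and 214 CPM in hypertrophic sums, a pooled ratio of 0.000537 (95% interval 1.36e-05 to 0.00301). Of 19 integrins and matrix receptors the collagen receptor Ddr2 and Gpc6 rose (10.5%), while the laminin receptor chain Itga7, the hyaluronan receptor Cd44 and Gpc1 fell (15.8%). Ddr2 had 57.4, 163, 388 and 236 CPM in resting sums and 9.49, 14.4, 7.39 and 0.955 CPM in hypertrophic sums, again with no overlap (adjusted p = 0.0291). Of 33 tested genes of the secretory pathway and collagen folding 1 rose (3.03%) and 2 fell (6.06%), beside 2.08% and 1.68% of all genes. P4ha3, which hydroxylates collagen chains, had 3, 98, 7 and 899 counts in resting and 0 in hypertrophic sums, at least 96.8-fold higher, while the crosslinking enzymes Lox and Loxl4 fell. Among 26 tested enzymes of glycosaminoglycan chains 1 rose and 1 fell (3.85% each), near the shares of all genes. The chondroitin sulfotransferase Chst11 rose, averaging 550.4 ± 157 CPM in resting and 129 ± 168 CPM in hypertrophic sums (SD, n = 4 each; adjusted p = 0.0302), and Sulf1, which trims sulfate from heparan chains, fell (adjusted p = 0.0204). The fit without animal G ended the calls of Mmp2, Adamts1, Ddr2, Itga7, Cd44, P4ha3, Lox and Sulf1 (adjusted p 0.0726 to 0.585). In other such fits edgeR lost the calls of Mmp2, Ddr2, Itga7, Cd44, P4ha3, Chst11 and Sulf1 (adjusted p 0.0795 to 0.308) without animal D, those of Lox, Chst11 and Sulf1 (adjusted p 0.0744 to 0.429) without animal A, those of Cd44, Lox and Chst11 (adjusted p 0.0604 to 0.0824) without P28 animal B and those of Cd44 and Lox (adjusted p 0.0537 to 0.0738) without P28 animal A.

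Housekeeping groups gave few calls. Of 32 cytosolic ribosomal protein genes and 38 nuclear genes of oxidative phosphorylation, 0 passed in edgeR and in DESeq2 and 0 had an unadjusted p under 0.05, with medians of 0.27 and -0.14. Among 21 cholesterol genes 0 passed in both tools, 1 had an unadjusted p under 0.05, and the median was -1.99 with 2 members positive. Of 27 glycolysis and hypoxia genes Pdk1, a kinase that shuts pyruvate out of mitochondria, rose, with 76.6, 193, 384 and 164 CPM in resting sums and 0, 0, 2.46 and 22 CPM in hypertrophic sums. This share of 3.7% is near the 2.08% of all genes. Leaving out animal A, animal D or animal G ended the call of Pdk1 (adjusted p = 0.11, 0.308 and 0.173).

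The difference between the zones was then set against that at P28, a juvenile age, in the same fit and with other animals. At P28, 123 of the 6958 genes (1.77%) passed, 38 (0.546%) higher and 85 (1.22%) lower in resting, and the median of all genes was -0.27. Of the 262 genes called at P2, 227 had the same sign at P28 and 64 passed there too. The change of the zone effect with age was tested directly, and 19 of 6958 genes (0.273%) passed, 12 (0.172%) more positive and 7 (0.101%) more negative at P2, with 686 at an unadjusted p under 0.05. The median difference over all genes was 0.82, and RLE scaling, with a median of 0.42, turned the split to 5 more positive and 8 more negative. Plagl1 turned round: its log2 fold change was 2.5 ± 0.61 at P2 and -2.86 ± 0.62 at P28 (adjusted p = 0.000793), a difference of 5.36 ± 0.86 (adjusted p = 3.92e-06). Wif1 turned the other way, -8.63 ± 1.91 at P2 and 4.39 ± 1.70 at P28, where it did not pass (adjusted p = 0.192), with a difference of -13.02 ± 2.53 (adjusted p = 0.000923). Ucma was higher in resting at both ages, 10.81 ± 1.18 at P2 and 4.50 ± 0.83 at P28, and more so at P2 (difference 6.31 ± 1.34, adjusted p = 0.00349). Alpl was lower at both, -11.84 ± 1.16 at P2 and -5.79 ± 0.86 at P28 (difference -6.05 ± 1.26, adjusted p = 0.00314). The connective tissue genes Dcn and Col1a2 and the membrane protein Itm2a rose at P2 and did not pass at P28 (adjusted p = 0.81, 0.213 and 0.967), with differences of 6.13 ± 1.33, 5.49 ± 1.21 and 3.39 ± 0.76 (adjusted p = 0.00497, 0.00518 and 0.00634). More negative at P2 were F13a1, the transglutaminase subunit of factor XIII (-8.91 ± 1.86), Gdf10 (-9.60 ± 2.27), both fitted against 0 resting counts at P2, the inhibitor of calcification Mgp (-4.04 ± 0.94) and the beta globin listed as Beta-s (-7.51 ± 1.92). Mgp did not pass at either age alone (adjusted p = 0.108 at P2 and 0.0524 at P28). None of the 19 remained without animal D and 2 were called without animal G; the edgeR fit without D had 391 genes at an unadjusted p under 0.05, and DESeq2 on the full set called 122. The P28 fold changes rest on 3 animals by their labels. The label of P28 animal B is a plural, so its samples may pool animals. In P28 animal D a proliferative library held 267 Xist and 0 Y-linked counts. A hypertrophic library under the same label held 0 Xist and 179 Y-linked counts, so that label may cover more than 1 animal.

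**Figure D3:**
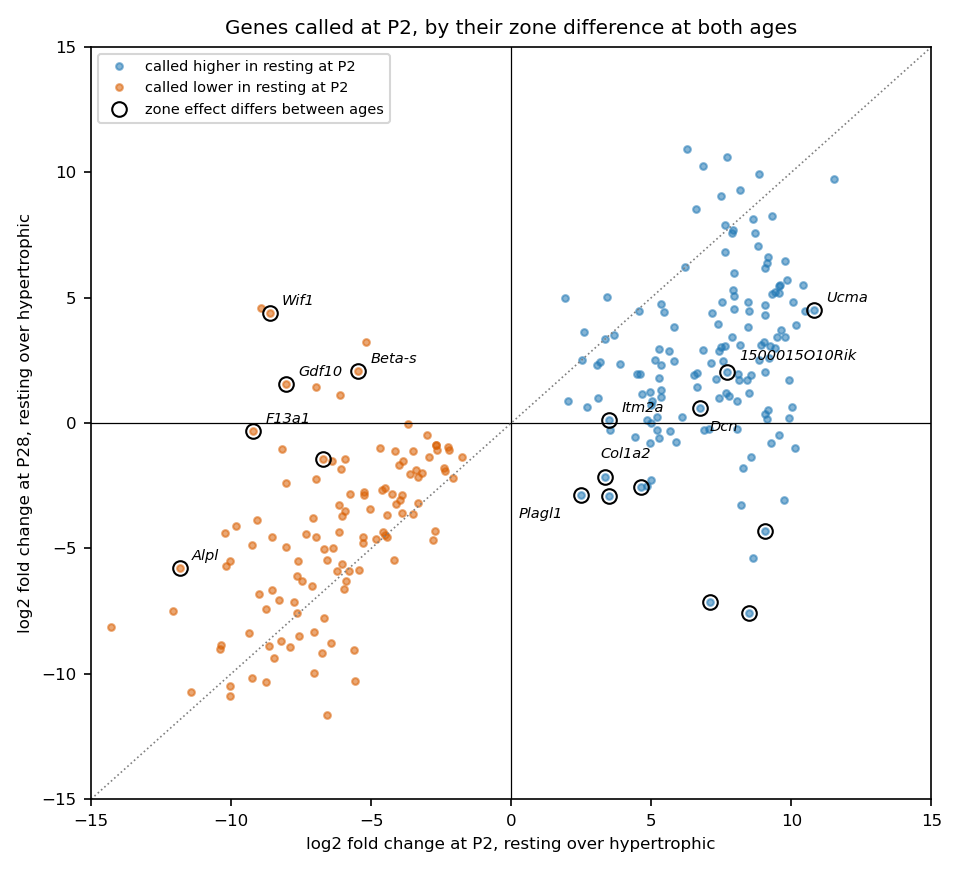
log2 fold change, resting over hypertrophic, at P2 (horizontal axis) and P28 (vertical axis) for the 262 genes called at P2; blue points were higher and orange points lower in resting at P2, black rings mark genes whose zone effect differed between the ages, and the dotted line is equality. Most points lie in the upper right and lower left, and Plagl1 and Col1a2 lie below 0 at P28.

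Libraries that the fit did not use were set beside the calls. A P3 animal had a resting library of 2182195 and a hypertrophic library of 2282352 counts; its label differs from that of animal G by 1 digit and a side mark, and both were kept apart. Of the 143 genes called higher at P2 with counts in this animal, 137 (95.8%) were higher in its resting library, and all 117 genes called lower were lower (100%). Over all 6799 tested genes with counts there, 52.7% were higher and 47.3% lower in resting, and 64.1% had the sign of the P2 fit. Igf2 had 5618 CPM in the resting and 2440.1 CPM in the hypertrophic library, Dcn 982 CPM in the resting and 23.1 CPM in the hypertrophic library, Mki67 374 CPM in the resting and 0.771 CPM in the hypertrophic library and Col10a1 0.599 CPM in the resting and 28205 CPM in the hypertrophic library. Phex, which animal A had carried in resting, had 0 CPM in the resting and 266 CPM in the hypertrophic library. The P2 libraries under the minimum, pooled to 231814 resting and 176164 hypertrophic counts, were noisier: 88.1% of 135 genes called higher had a higher resting value and 74% of 100 genes called lower a lower one, beside 71.4% higher and 28.6% lower over all genes tested.

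**Figure D4:**
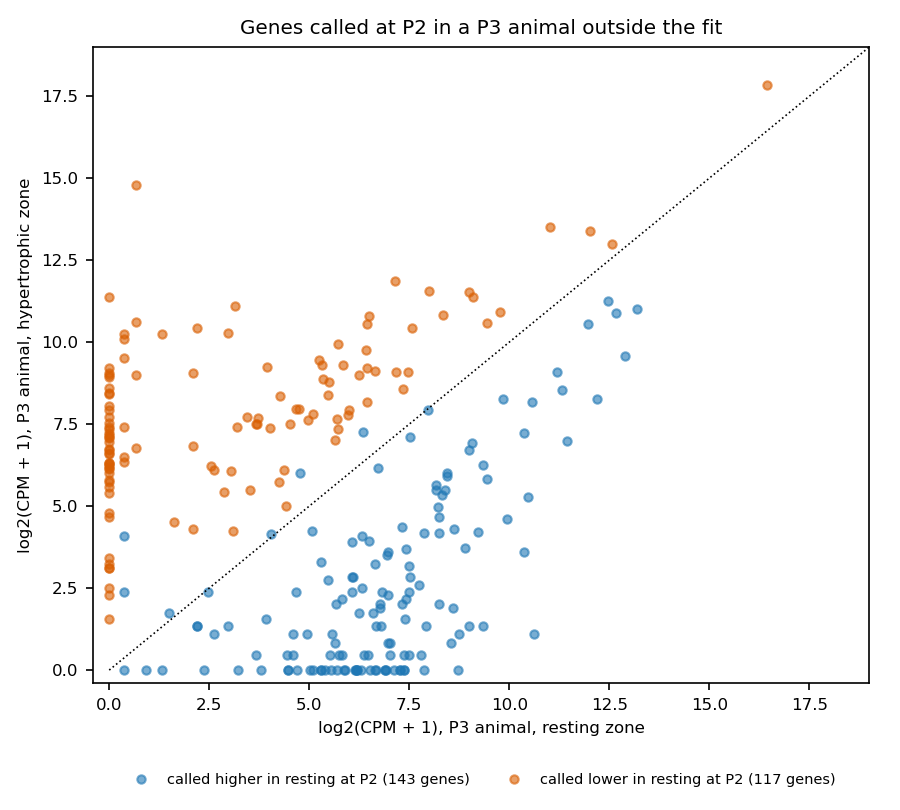
Level of the genes called at P2 in the P3 animal, which was not part of the fit, as log2(CPM + 1) in its resting (horizontal axis) and hypertrophic library (vertical axis); blue points were called higher and orange points lower in resting at P2, and the dotted line is equality. All 117 orange points lie above the line and 137 of 143 blue points below it.

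Markers of other cell types were counted in each sum. The 9 erythroid markers in the table summed to 0.908 to 28 CPM in resting and 14.8 to 735.4 CPM in hypertrophic sums, in hypertrophic sums most of it the globin Beta-s, and 6 of 9 were at 0 in each zone. Those at 0 in both zones include the globins Hba-a1, Hba-a2, Hbb-b1 and Hbb-b2, and reads of near-identical copies cannot be told apart. Beta-s fell (log2 fold change -5.46 ± 1.35, adjusted p = 0.00394) and lost its call without A or G. Endothelial markers reached 57.4 CPM in resting and 47.4 CPM in hypertrophic sums, with Pecam1, Cdh5 and Tie1 at 0 in both zones. Others of this list were seen: Vwf had 7, 0, 0 and 0 resting and 0, 0, 0 and 73 hypertrophic counts. Emcn had 0, 0, 0 and 21 resting and 0, 0, 0 and 1 hypertrophic counts. Osteoclast and macrophage markers reached 32.8 CPM in resting and 15.8 CPM in hypertrophic sums, with Acp5, Lyz2 and C1qa at 0 in both. Ctsk had 1, 13, 0 and 111 resting and 0, 0, 0 and 1 hypertrophic counts. Cd68 had 0 resting counts and 0, 0, 3 and 31 hypertrophic counts. Neutrophil and marrow markers reached 16.4 CPM in resting and 57.7 CPM in hypertrophic sums, with Elane and Mpo at 0 in both. S100a8 had 0, 0, 1 and 0 resting and 0, 0, 0 and 55 hypertrophic counts. Ptprc had 6, 2, 0 and 0 resting and 0 hypertrophic counts. Muscle markers reached 142 CPM in resting and 952 CPM in hypertrophic sums, the highest in animal C, and 0 of 3 tested passed in edgeR and in DESeq2, with 1 at an unadjusted p under 0.05. The part of these cells in the zone differences was not tested.

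**Figure D5:**
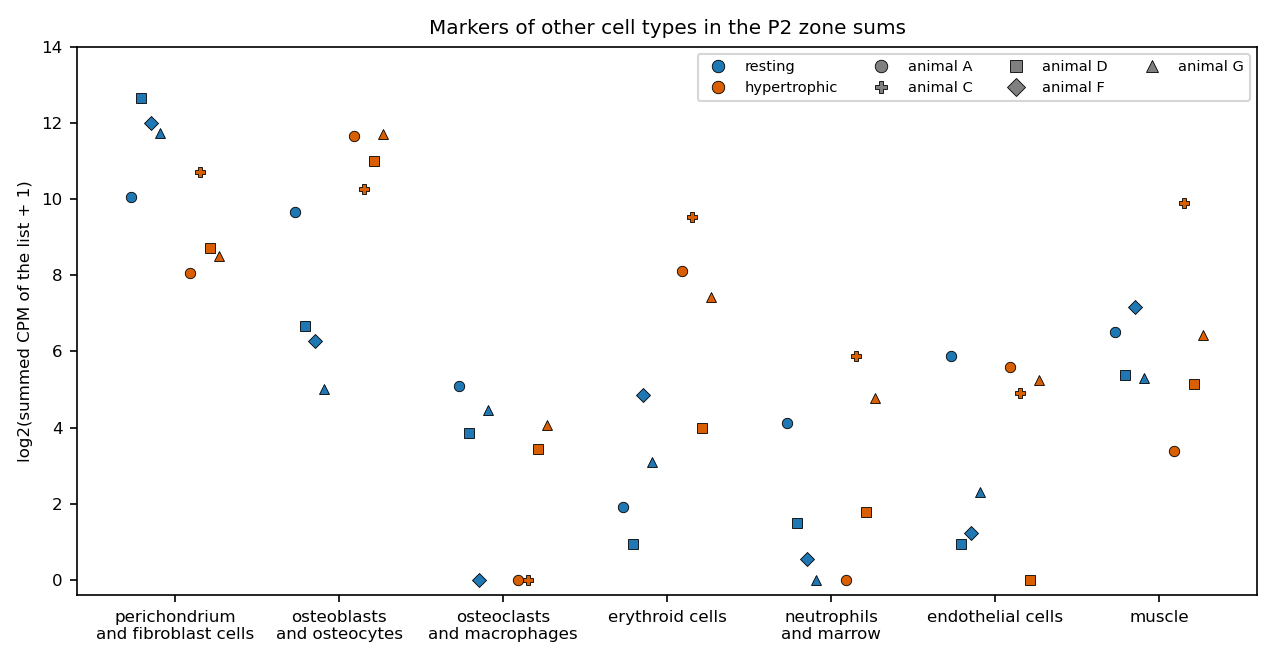
Summed level of 7 lists of markers of other cell types in each P2 sum, as log2(summed CPM + 1), resting left of hypertrophic for each list; symbols mark the animal. Perichondrium and fibroblast markers reach 6457 CPM in resting, and osteoblast markers 3381 CPM and erythroid markers 735.4 CPM in hypertrophic sums.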

How the data were processed

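The authors deposited a table of raw counts, whole reads per gene symbol, for 23420 symbols in 100 columns; 32 of the 68 titles have 2 columns, which agree within sampling noise (chi-square per degree of freedom 0.971 to 1.03) and were summed as 1 library. The submitters' processing notes name STAR 2.5.2b, cutadapt, Subread, featureCounts 1.5.3 and the build mm10. The sources used here do not give the annotation or strand setting, so reads of overlapping antisense genes and near-identical copies cannot be told apart. Libraries with at least 100000 counts (all genes) were summed per animal and zone. Labels that differ in a trailing number or side were taken as 1 animal.

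Counts were tested in edgeR 4.0.16 (R 4.3.3): TMM, filterByExpr, robust quasi-likelihood F-test, Benjamini-Hochberg over 6958 genes, threshold 0.05. One fit held 21 sums (P2 and P28, 3 zones) with the animal as a block and zone within age, 8 residual degrees of freedom; the contrast was resting minus hypertrophic at P2. Pairing comes from the animal labels. Deviations from the group means correlated by 0.118, 0.0813 and 0.127 between zones of animals A, D and G. Between zones of different animals they correlated by -0.209 to 0.135, the highest for resting A with hypertrophic C. These correlations therefore do not set the labelled pairs apart. P-values measure spread between these libraries, moderated over all genes. Each standard error is the size of the log2 fold change divided by the root of its F statistic. Levels are mean ± SD over 4 sums. Against 0 counts a bound uses 3 counts over the group; ratios have exact 95% conditional binomial intervals, which cover counting error only. The fit was tested on simulated data.

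Named genes are the 12 each way with the smallest adjusted p that moved alike in 3 animals and averaged at least 20 CPM, called members of 36 lists, 11 fixed cartilage genes and 6 each way for age; Sfrp5 is a zone marker. Of the genes so chosen, 2 are not reported here. The comparison, lists and rule were chosen with earlier results of these data known. Alternatives were RLE scaling, no filter, DESeq2 1.42.0, no block, P2 alone, other minimums, thinning, the P3 animal added, repeats removed and each animal left out. Promoters are RefSeq GRCm38.p6. Xylene libraries were not used.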

Additional observations from a re-analysis of the deposited data

Results flagged for a closer look

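In 66 groups of 4 sums checked, 1 sum lay far outside the other 3 in 6 groups, where chance alone marks about 1 in 20 groups. In hypertrophic sums animal C was high for Ucma (28.84 CPM) and 1190002N15Rik (86.52 CPM). In resting sums animal G was high for Aldh1a3 (0.179 CPM) and Panx3 (24.88 CPM), animal F for Pcsk6 (123.7 CPM) and animal A for Spp1 (153.1 CPM). The Aldh1a3 value is 1 count, the smallest that can be seen in that sum. For groups at or near the floor the rate of 1 in 20 need not hold, so no excess is read from the 6 groups.

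For 11 named genes the zone effect at P2 minus that at P28 passed the test of the difference. It was 6.314 for Ucma, 6.129 for Dcn, 3.388 for Itm2a, 5.359 for Plagl1 and 5.49 for Col1a2 on the log2 scale. It was -6.052 for Alpl, -13.02 for Wif1, -9.599 for Gdf10, -7.514 for Beta-s, -8.905 for F13a1 and -4.038 for Mgp. Of the 9 fits with 1 animal left out, Plagl1 passed in 8, Wif1 in 7 and Beta-s in 3.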

How the results depend on the processing

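The count of 262 was 273 with RLE scaling, 221 with ribosomal repeats removed before the minimum, 281 with a minimum of 50000 counts and 276 with repeats removed from the same libraries, a setting added after seeing the data. It was 165 without the filter on low counts, 164 with every sum thinned to the shallowest, 433 in DESeq2 (258 higher, 175 lower, 945 genes without an adjusted p) and 529 with the P3 animal added. P2 sums alone gave 447 over 3 zones (337 higher, 110 lower) and 325 over both zones compared (220 higher, 105 lower). Without the replicate block it was 286, of which 197 were among the 262. Leaving out 1 animal gave 54 to 430, the highest without P28 animal D. The all-gene median log2 fold change ranged from 0.34 to 0.64.

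The 19 genes with a zone effect that differed by age became 13 with RLE scaling (5 more positive, 8 more negative), 122 in DESeq2, 87 with repeats removed before the minimum, 2 with a minimum of 50000 counts, 11 after thinning and 17 without the replicate block. Leaving out 1 animal gave 0 to 25.

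Over the 111 genes of the naming rule and all alternatives, 2164 values were computed: 1838 kept direction and side of the threshold, 311 lost the call, 13 gained it and 2 reversed. Both reversals came without the replicate block, Pappa2 at -0.46 and Phex at 0.39. Lost calls were most frequent without animal G (65 genes) and D (58). Of these genes, 29 passed each time 1 animal was left out. The causes were not tested. Hypertrophic sums of A and C held 15% and 7.92% of their counts outside the repeats, so their low genes are the least precise.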
